A study of Rattus norvegicus with 64 samples.

Results

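The clustered protocadherins are described here in 64 RNA sequencing libraries of rat brain. The members are the genes whose symbol in the authors' comparison tables starts with Pcdha, Pcdhb or Pcdhg followed by a cluster number. The rule found 31 rows with 30 symbols, among 15432 identifiers with a symbol and 32551 gene identifiers in all. Of the 30 members, 2 belong to the alpha cluster (Pcdha4 and Pcdha6), 16 to the beta cluster and 12 to the gamma cluster, of which 7 are of the A type and 5 of the B type. Where 2 rows shared the symbol Pcdha4, the row of higher total was used (4683 counts, against 4339 in the other). No row carried the symbol Pcdhac1, Pcdhac2, Pcdhgc3, Pcdhgc4 or Pcdhgc5, the C-type isoforms, so these are not described.

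The libraries came from the hippocampus (HPC) and the cortex (CE) of 32 rats, 1 of each region per rat. The rats had the genotype ApoE3 (E3) or ApoE4 (E4), after 2 forms of apolipoprotein E, a protein that carries lipids, and were given either the chemotherapy drug doxorubicin or phosphate-buffered saline (PBS). Doxorubicin was given at 2 mg/kg per week for 4 weeks from an age of 5 weeks, and the brains were collected 5 to 6 weeks later. This gave 8 groups of 8 libraries (4 from males, 4 from females), 1 for each combination of region, genotype and treatment. The strain, and how the ApoE alleles were made, are not given in the sources used here, and no group of rats without one of these ApoE genotypes was among the samples.

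Clustered protocadherins are cell-adhesion proteins of the cadherin superfamily that lie on the surface of neurons. Each neuron switches on a small set of them, partly at random, through the choice of promoters that are bound by the insulator protein CTCF and looped to distant enhancers by cohesin, and proteins of matching sets bind each other between membranes. In this way they give neurons a surface identity that lets a neuron's own branches avoid each other, and the gamma proteins are also known for their part in neuron survival and dendrite growth. In the alpha and gamma clusters each variable first exon is spliced to constant exons shared by the cluster, whereas each beta gene is a single exon with its own promoter.

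The promoters of the beta genes share a short run of bases, shown here because the largest differences between genotypes among the members fell on beta genes and because the stretches of Pcdhb6 and Pcdhb8, which moved in opposite directions, are the most alike. The sequences are the RefSeq reference of build GRCr8, plus strand, 5′ to 3′, and not those of the rats studied. Capitals mark the run GGTGGCGCTG, which a search over the beta windows picked as the commonest run of 10 bases there.
Pcdhb6: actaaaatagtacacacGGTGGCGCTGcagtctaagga
Pcdhb8: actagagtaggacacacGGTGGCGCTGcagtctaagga
Pcdhb3: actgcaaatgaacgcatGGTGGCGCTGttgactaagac
Pcdhb5: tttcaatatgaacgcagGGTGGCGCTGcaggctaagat
Pcdhb9: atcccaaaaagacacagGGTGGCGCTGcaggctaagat

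These stretches of 38 bases lie at chr18:29320145-29320182 (Pcdhb6), chr18:29339251-29339288 (Pcdhb8), chr18:29285597-29285634 (Pcdhb3), chr18:29302397-29302434 (Pcdhb5) and chr18:29379241-29379278 (Pcdhb9). A RefSeq window from 250 bases before to 50 after the gene start was found by symbol for 22 of the 30 members. The run stood in 14 of 14 windows of beta members, by its choice, in 0 of 7 of gamma members and in 0 of 1 of alpha members. Among the windows of all 27457 genes, searched on both strands, 66 (0.240%) held it, and among the 27423 genes outside the clusters 51 (0.186%) did. Its first base lay 229 bases upstream of the RefSeq start in Pcdhb6 and 208 bases upstream in Pcdhb8, against 46 to 98 bases in the other 12 beta members. Over the 38 bases, Pcdhb6 and Pcdhb8 differed at 3 positions, the fewest of the 91 pairs of beta members, whose median was 11 and maximum 18. A match describes the letters only and does not show that a factor binds there.

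The libraries held 10.8M to 20.4M counts (median 14.5M, spike-ins included). Levels below are given in CPM, which are counts scaled to a fixed total of gene counts, without the spike-ins. Hippocampal and cortical neuron markers followed the region labels: the summed markers of hippocampal granule and pyramidal neurons had medians of 565 and 527 CPM in E3 and E4 hippocampus and of 208 and 233 CPM in cortex, and those of cortical neurons 108 and 102 CPM against 335 and 343 CPM. The genotype label could not be checked on the deposited ApoE3 donor row, which held 1258 to 3172 CPM in E3 libraries and 1204 to 2415 CPM in E4 libraries. Rat numbers ran from 1 to 34 in E4 and from 37 to 72 in E3, in blocks by sex and treatment, so an unlabelled batch that followed these numbers and the genotype or treatment cannot be told apart. In 11 libraries the summed markers of choroid plexus exceeded 500 CPM, 2 of them in each hippocampal group, 1 in each cortical group except E4 with doxorubicin, which had 0. Results that moved without these libraries are named where they occur.

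All 3 clusters were transcribed in every group. In E3 rats given PBS, the beta members summed to 103.8 ± 5.76 CPM in hippocampus and 119.5 ± 5.37 CPM in cortex, and the gamma members to 115.7 ± 6.80 and 84.8 ± 7.47 CPM (mean ± SD, n = 8 each). The pair of alpha members summed to 131.7 ± 5.89 CPM in hippocampus and 151.0 ± 18.2 CPM in cortex. Most of the alpha counts stood in the Pcdha6 row, which held 128410 counts over all libraries, or 39.2% of the counts of all members. Pcdhgb7 followed with 17795 counts (5.43%), and Pcdhb9 led the beta cluster with 13812. Pcdhb2 had the fewest, 1660 counts. These are shares of reads, which also depend on transcript length, and how the authors' counting assigned reads of constant exons or of near-identical genes is not given in the sources used here and was not tested.

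The ratio of gamma to beta was higher in hippocampus at the median, with ranges that overlapped narrowly. The ratio of gamma to beta counts ran from 0.965 to 1.65 in the 32 hippocampal libraries (median 1.25) and from 0.641 to 0.968 in the 32 cortical ones (median 0.801). Within each of the 4 groups of rats, the gamma sum was higher in hippocampus than in cortex of the same rat in 8 of 8 rats, and the beta sum was lower in 8 of 8. The alpha sum was lower in hippocampus in 6 of 8 E3 rats given PBS, 7 of 8 given doxorubicin, and 8 of 8 E4 rats under either treatment. The median log2 ratio of hippocampus to cortex was 0.50 and 0.51 for gamma in E3 rats (PBS and doxorubicin) and 0.32 and 0.35 in E4 rats, and for beta -0.19, -0.26, -0.32 and -0.32 in the same order.

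**Figure D1:**
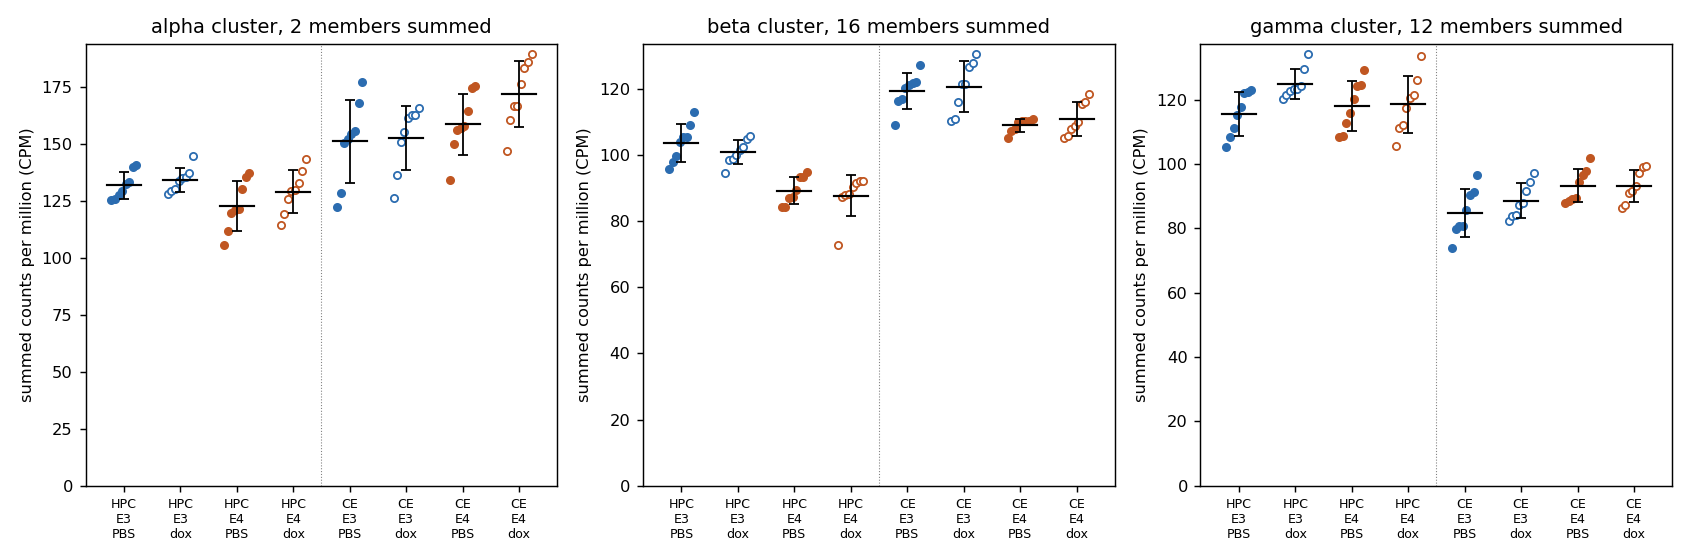
Summed CPM (y axis) of the alpha, beta and gamma members in each library, by region (HPC, hippocampus, left of the dotted line; CE, cortex, right), genotype (E3 blue, E4 orange) and treatment (filled PBS, open doxorubicin); lines and bars are mean and SD of 8 libraries. The gamma sums lie higher in hippocampus (105.2 to 134.3 CPM) than in cortex (73.8 to 101.8 CPM). The beta and alpha sums have higher medians in cortex, with ranges that overlap between regions. The beta sums of E4 libraries lie below those of E3 in hippocampus with PBS (84.4 to 94.9 against 95.7 to 113.0 CPM).

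After removal of the group means, the median Pearson correlation between log2 levels over the 32 hippocampal libraries was 0.08 for the 120 pairs of beta members, 0.14 for the 66 pairs of gamma members and -0.00 for the 192 pairs across the clusters. In cortex the medians were 0.05, 0.12 and 0.05. These points share libraries and depth and are a description, and counting error, which lowers such correlations, was not removed. The coefficient of variation within a group, as the median over groups, ran from 8.05% to 28.3% across members, which is 1.18 to 3.61 times what counting error alone would give, with the largest multiple in Pcdha6.

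Genotype set single beta genes apart, in both directions. In hippocampus of PBS rats, 8 of 30 members differed between E4 and E3 (edgeR quasi-likelihood test, Benjamini-Hochberg adjusted p under 0.05), all of them beta genes, against 3.81% of all 15416 genes tested. Of these, 2 were higher in E4 (background 1.93%) and 6 lower (1.89%). In cortex 10 of 30 members differed, 8 beta and 2 gamma, against 18.2% of 15315 genes tested, with 5 higher (9.63%) and 5 lower (8.57%). Pcdhb6 and Pcdhb5 were higher and Pcdhb8, Pcdhb3 and Pcdhb11 lower in both regions, 5 members out of 13 called in either. In bulk tissue, fewer cells that use a gene and less RNA per cell cannot be told apart.

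Pcdhb6 showed the largest change. In hippocampus with PBS its lowest, median and highest levels were 0.319, 0.896 and 1.45 CPM in E3 and 1.53, 3.43 and 4.07 CPM in E4. In cortex they were 0.307, 0.971 and 1.70 CPM in E3 and 2.40, 4.89 and 7.75 CPM in E4. Every E4 library lay above every E3 library in each region, also when the doxorubicin rats were added. The ratio of mean levels was 3.58 in hippocampus and 5.05 in cortex, and the fitted log2 change was 1.87 (SE 0.25, edgeR adjusted p = 3.79e-06) and 2.37 (SE 0.20, adjusted p = 4.40e-11). The depth is low in E3, at 5 to 21 counts a library with PBS against 20 to 114 in E4.

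Pcdhb8, whose promoter stretch is the closest to that of Pcdhb6, changed the other way. It ran from 7.40 over a median of 8.59 to 10.7 CPM in E3 hippocampus and from 2.06 over 2.71 to 5.20 CPM in E4. In cortex the values were 8.01, 13.7 and 14.7 CPM in E3 against 2.69, 4.16 and 6.81 CPM in E4. The genotypes did not overlap in either region, under either treatment. Mean levels were 2.90 times higher in E3 hippocampus and 2.93 times higher in E3 cortex, with log2 changes of -1.52 (SE 0.15, edgeR adjusted p = 1.20e-08) and -1.53 (SE 0.13, adjusted p = 6.76e-11). The sum of Pcdhb6 and Pcdhb8 was taken after these values had been seen, and its direction follows from them. It was lower in E4, at 6.17 ± 0.514 against 9.56 ± 1.24 CPM in hippocampus and 9.31 ± 1.36 against 13.6 ± 2.38 CPM in cortex (mean ± SD, n = 8 each). Whether reads moved between the rows of similar beta genes was not tested.

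Pcdhb3 and Pcdhb11 were lower in E4 in both regions. Pcdhb3 ran from 5.23 to 8.42 CPM (median 7.23) in E3 cortex and from 3.04 to 4.23 CPM (median 3.62) in E4 cortex, with no overlap, a ratio of 1.98 and a log2 change of -0.96 (SE 0.13, edgeR adjusted p = 8.52e-07). In hippocampus the ranges overlapped, 3.31 to 5.47 against 2.34 to 4.19 CPM, and the change was -0.53 (SE 0.13, adjusted p = 0.0185; 0.0899 without the libraries high in choroid plexus markers). For Pcdhb11 the medians were 5.48 and 3.53 CPM in hippocampus (log2 change -0.63, SE 0.13, adjusted p = 0.00268) and 7.70 and 5.25 CPM in cortex (log2 change -0.57, SE 0.11, adjusted p = 0.000293), where 6.91 to 9.95 CPM in E3 lay above 4.19 to 5.92 CPM in E4.

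Pcdhb5, by contrast, was higher in E4 in both regions. Its levels were 8.42, 9.85 and 12.4 CPM in E3 hippocampus and 10.6, 13.8 and 16.1 CPM in E4, overlapping ranges with a log2 change of 0.41 (SE 0.09, edgeR adjusted p = 0.00278). In cortex they were 9.65, 11.9 and 13.6 CPM against 10.5, 14.9 and 15.8 CPM, a change of 0.31 (SE 0.08, adjusted p = 0.00392). Pcdhb9 was higher in E4 cortex without overlap, 18.0 to 22.1 CPM (median 19.7) against 12.1 to 14.8 CPM (median 13.7), with a log2 change of 0.58 (SE 0.07, adjusted p = 2.89e-07). In hippocampus the Pcdhb9 ranges overlapped and the change of 0.29 (SE 0.09, adjusted p = 0.0845) did not pass.

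**Figure D2:**
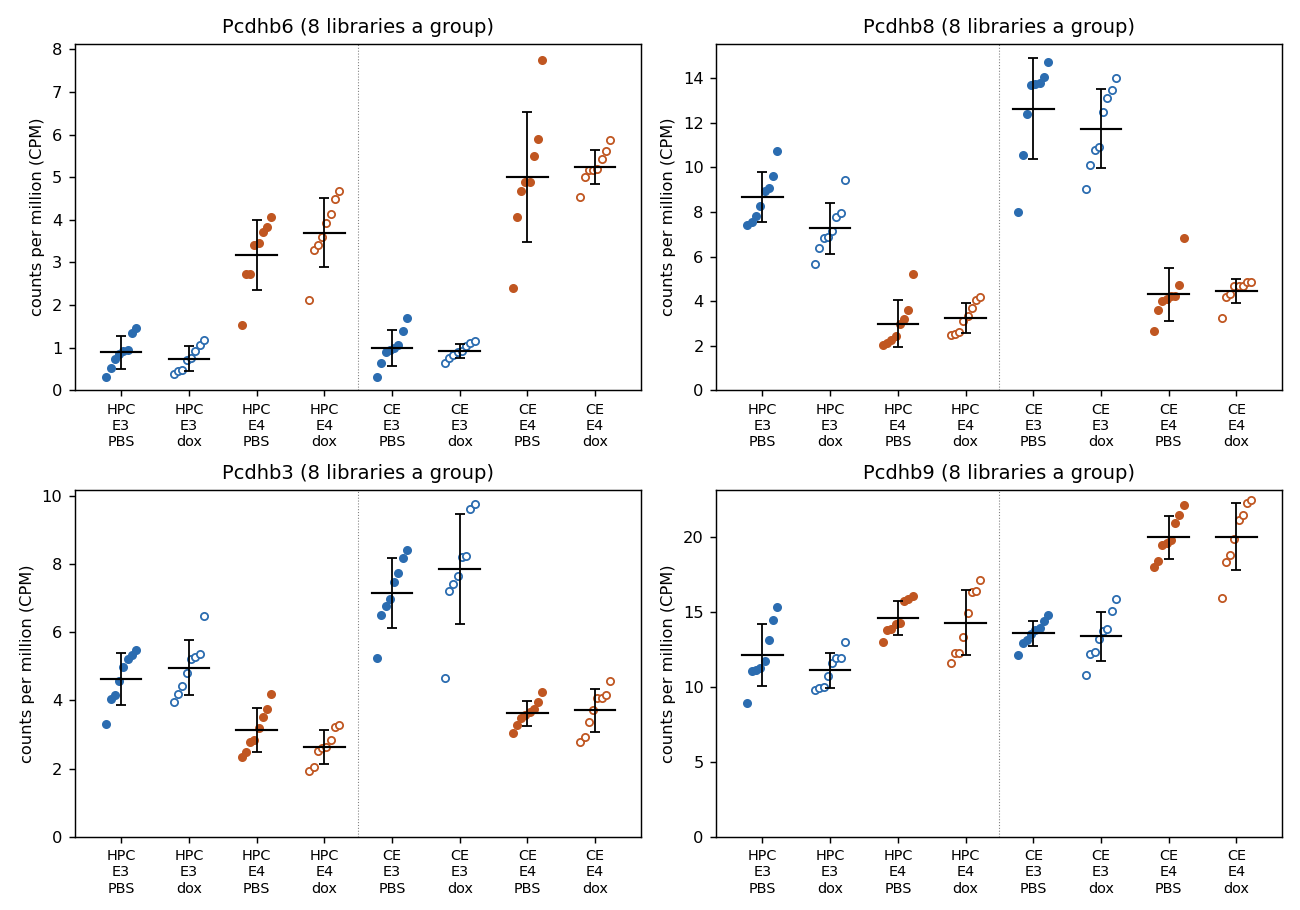
CPM (y axis) of Pcdhb6, Pcdhb8, Pcdhb3 and Pcdhb9 in each library, by region (HPC left of the dotted line, CE right), genotype (E3 blue, E4 orange) and treatment (filled PBS, open doxorubicin); lines and bars are mean and SD of 8 libraries. Pcdhb6 is higher and Pcdhb8 lower in E4 with no overlap in either region, whereas Pcdhb3 and Pcdhb9 separate the genotypes in cortex.

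Other beta genes passed in 1 region in the PBS rats. In hippocampus Pcdhb20 fell from a median of 7.44 in E3 to 5.08 CPM in E4 (log2 change -0.59, SE 0.11, edgeR adjusted p = 0.000714), and the lowest of the E3 libraries lay just above the highest of the E4 libraries, both at 6.18 CPM after rounding. Pcdhb12 fell from 4.43 to 2.87 CPM (log2 change -0.64, SE 0.14, adjusted p = 0.00622), with overlap. Pcdhb19 lay at 11.6 to 13.8 CPM in E3 and 8.36 to 10.9 CPM in E4 (log2 change -0.35, SE 0.10, adjusted p = 0.0370). The Pcdhb19 call was lost in 10 of 16 fits that left out 1 library, and without the libraries high in choroid plexus markers (-0.27, adjusted p = 0.261). In cortex Pcdhb14 fell from a median of 7.46 to 5.81 CPM (log2 change -0.37, SE 0.09, adjusted p = 0.00585). Pcdhb7 fell from 9.34 to 7.51 CPM (-0.30, SE 0.09, adjusted p = 0.0250), a call lost in 5 of 16 fits without 1 library and without the libraries high in choroid plexus markers (-0.22, adjusted p = 0.135). The E3 and E4 ranges of Pcdhb14 and Pcdhb7 overlapped.

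Of the gamma and alpha members, 2 passed between genotypes, both in cortex. In hippocampus 0 of 12 gamma members passed (edgeR; 3 at an unadjusted p under 0.05, beside 16.0% of all genes; median log2 change 0.07, 8 of 12 above 0). In cortex Pcdhga11, with medians of 4.60 CPM in E3 and 6.02 CPM in E4 (log2 change 0.40, SE 0.13, adjusted p = 0.0224), and Pcdhga4, with 6.41 and 7.68 CPM (0.36, SE 0.13, adjusted p = 0.0430), were higher, each with overlapping ranges. The Pcdhga4 call was lost in 8 of 16 fits without 1 library, and without the libraries high in choroid plexus markers (0.34, adjusted p = 0.0878). The median change of the gamma members in cortex was 0.16, with 11 of 12 above 0, and that of the beta members was -0.24 in hippocampus (12 of 16 below 0) and -0.23 in cortex (11 of 16), beside -0.00 over all genes in hippocampus and -0.01 in cortex. Neither alpha member passed: Pcdha6 changed by -0.07 (SE 0.05, adjusted p = 0.583) and 0.09 (SE 0.06, adjusted p = 0.383), and Pcdha4 by -0.07 (SE 0.11, adjusted p = 0.824) and 0.26 (SE 0.16, adjusted p = 0.275), in hippocampus and cortex. With both rows named Pcdha4 summed, its hippocampal value was 0.12 (edgeR adjusted p = 0.608). The members of lowest total also did not pass: Pcdhb2 stood at 0.25 (adjusted p = 0.648) and 0.33 (adjusted p = 0.297), and Pcdhga9, the lowest gamma member, at -0.07 (adjusted p = 0.883) and 0.06 (adjusted p = 0.841).

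**Figure D3:**
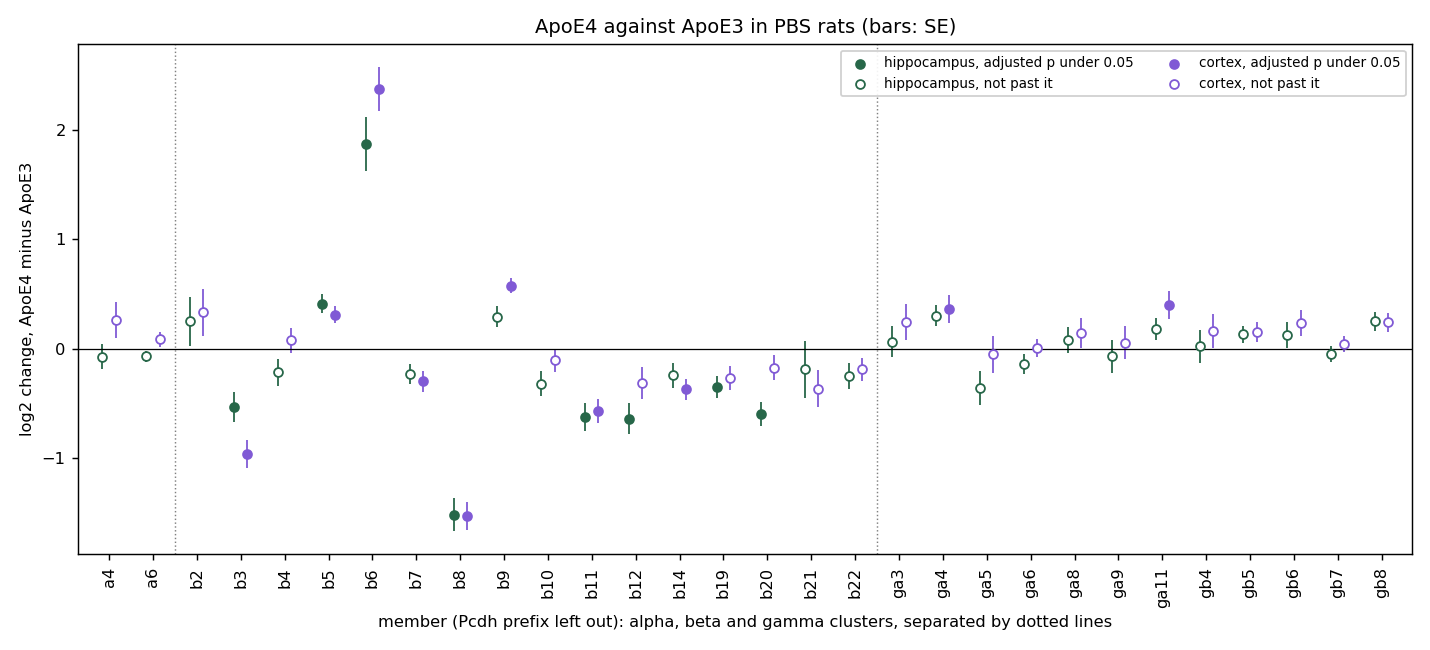
Log2 change of E4 against E3 in PBS rats (y axis; bars are SE) for each of the 30 members in cluster order (x axis), in hippocampus and cortex; filled points passed an edgeR adjusted p of 0.05. Changes reach 2.37 (Pcdhb6, cortex) and -1.53 (Pcdhb8, cortex) in the beta cluster, and 8 of 8 calls in hippocampus and 8 of 10 in cortex are beta genes.

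Counted by overlap, 4 members had 8 E3 and 8 E4 libraries that did not overlap in hippocampus (Pcdhb6, Pcdhb8, Pcdhb19 and Pcdhb20), beside 1.11% of all genes tested, and 5 in cortex (Pcdhb6, Pcdhb9, Pcdhb3, Pcdhb8 and Pcdhb11), beside 2.27%. The rats given doxorubicin, other animals than those given PBS, were compared in the same way after the PBS result had been seen. In hippocampus 12 members passed (edgeR; 3.63% of all genes), of which 7 had passed in the same direction with PBS. In cortex 11 passed (12.0% of all genes), 8 of them shared. Pcdhb6 was higher by 2.30 (SE 0.25, adjusted p = 7.26e-08) and 2.50 (SE 0.20, adjusted p = 9.99e-12), Pcdhb8 lower with -1.13 (SE 0.15, adjusted p = 3.36e-06) and -1.37 (SE 0.13, adjusted p = 7.39e-10), and Pcdhb3 lower with -0.89 (SE 0.13, adjusted p = 4.15e-05) and -1.07 (SE 0.12, adjusted p = 7.18e-08) in hippocampus and cortex. Pcdhb22 was lower in both regions in these rats (-0.52, SE 0.12, adjusted p = 0.00585, and -0.46, SE 0.10, adjusted p = 0.00207). Pcdhb12 in hippocampus (-0.22, adjusted p = 0.501), and Pcdhga4 (0.25, adjusted p = 0.191) and Pcdhga11 (-0.02, adjusted p = 0.951) in cortex, did not pass there. Conversely, Pcdhgb8 in cortex (0.38, SE 0.09, adjusted p = 0.00346) and Pcdha4 in hippocampus (0.39, SE 0.11, adjusted p = 0.0456) were higher in E4 in these rats and had not passed with PBS. The sum of both rows named Pcdha4 was not compared between genotypes in these rats. Some beta genes that passed in 1 region with PBS passed in the other region here: Pcdhb9 (0.38, SE 0.09, edgeR adjusted p = 0.0156) and Pcdhb14 (-0.41, SE 0.11, adjusted p = 0.0367) in hippocampus, and Pcdhb20 (-0.41, SE 0.12, adjusted p = 0.0164) in cortex. Pcdhb7 in hippocampus (adjusted p = 0.0504), and Pcdhb12 (adjusted p = 0.299) and Pcdhb19 (adjusted p = 0.224) in cortex, did not. A term for a genotype difference that depended on region, also added after the data had been seen, passed in 0 members by edgeR and by DESeq2, beside 20 of 15415 genes (0.13%) by edgeR. At an unadjusted p under 0.05 stood 3 members, Pcdhb3, Pcdhb9 and Pcdhb20, with the smallest p for Pcdhb3 (0.43, SE 0.17, unadjusted p = 0.0164, edgeR adjusted p = 0.314).

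The genes around the clusters were read from the same fit. Of 22 non-members (10 on each side in the RefSeq order, and Slc25a2 and Taf7 between the clusters), the log2 changes of E4 against E3 ran from -0.23 to 0.34 in hippocampus and from -0.15 to 0.56 in cortex, where the members spanned -1.52 to 1.87 and -1.53 to 2.37. In hippocampus 2 of the 22 passed (3.81% of all genes), Tmco6 (0.34, SE 0.06, edgeR adjusted p = 0.000582) and Diaph1 (0.18, SE 0.04, adjusted p = 0.00425), and in cortex 6 passed (18.2% of all genes), 3 higher and 3 lower. Cell type markers moved with genotype as well. The summed microglial markers had medians of 229 CPM in E3 and 199 CPM in E4 hippocampus (ranges 202 to 257 and 176 to 231) and of 205 and 174 CPM in cortex (161 to 253 and 153 to 206), with 2 and 3 of 4 markers lower by the test. Summed astrocyte markers were 1451 CPM in E3 cortex (1240 to 1957) and 1810 CPM in E4 cortex (1564 to 1995), with 2 of 5 higher, and 3 of 4 meningeal markers were higher in E4 cortex. Pan-neuronal markers had medians of 5361 and 5266 CPM in hippocampus (4881 to 5764 and 4444 to 5764) and 6164 and 6018 CPM in cortex (5560 to 6651 and 5468 to 6491), and in cortex 1 of 5 was higher and 3 were lower. The 1 of 3 serotonergic markers that was tested, Tph2, an enzyme of serotonin synthesis, was lower in E4 in both regions (-1.85, SE 0.22, edgeR adjusted p = 4.99e-07 in hippocampus, and -0.96, SE 0.25, adjusted p = 0.00634 in cortex). The low level of this gene ran from 1.56 to 3.55 CPM in E3 and from 0.334 to 1.51 CPM in E4 hippocampus, without overlap. In E4 cortex both tested endothelial markers, Cdh5 (0.39, adjusted p = 0.0219) and Flt1 (0.27, adjusted p = 0.0427), and 2 of 3 markers of oligodendrocyte precursors, Pdgfra (0.50, adjusted p = 6.80e-06) and Cspg4 (0.22, adjusted p = 0.0305), were higher. The part of these shifts in the protocadherin differences was not tested.

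The regions differed by cluster. In PBS rats of either genotype, 9 of 12 gamma members were higher in hippocampus than in cortex and 8 of 16 beta members were lower, while 2 beta members were higher in E3. In E3 rats 20 of 30 members differed (edgeR; 51.0% of all 15428 genes tested), 11 higher in hippocampus (27.5% of all genes) and 9 lower (23.6%). The 11 higher were 9 of the 12 gamma members, Pcdhb20 and Pcdhb22, and the 9 lower were 8 of 16 beta members and Pcdha6. In E4 rats 19 members differed (50.4% of 15432 genes), 9 higher, all gamma (24.7%), and 10 lower, 8 beta and both alpha (25.7%). The same 9 gamma genes passed in both genotypes, namely Pcdhga4, Pcdhga5, Pcdhga6, Pcdhga8 and Pcdhgb4 to Pcdhgb8. Among beta members Pcdhb4, Pcdhb8, Pcdhb10, Pcdhb11 and Pcdhb12 passed in both, and 0 members passed in opposite directions. The share of members called thus lies somewhat above that of all genes (20 and 19 of 30 beside 51.0% and 50.4%), a gap that was not tested. The directions differ by cluster: the median log2 difference was 0.48 for gamma and -0.29 for beta members in E3, with 12 of 12 gamma members above 0 and 13 of 16 beta members below 0, and 0.38 and -0.42 in E4, with 11 of 12 above 0 and 14 of 16 below 0.

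Pcdhgb7, the gamma member of highest total, ran from 18.0 to 25.4 CPM (median 22.3) in E3 hippocampus and from 14.0 to 20.4 CPM (median 14.7) in E3 cortex, a log2 difference of 0.46 (SE 0.08, edgeR adjusted p = 1.00e-05). In E4 it ran from 17.1 to 23.6 CPM (median 21.3) against 15.4 to 17.5 CPM (median 16.2), a difference of 0.35 (SE 0.07, adjusted p = 4.23e-05). The ranges overlapped in both genotypes. Pcdhgb5 separated the regions in E3 without overlap, at 10.7, 11.7 and 13.2 CPM in hippocampus against 7.42, 8.48 and 9.53 CPM in cortex (0.49, SE 0.07, adjusted p = 1.23e-06). In E4 the Pcdhgb5 ranges overlapped, 10.1 to 14.3 against 7.07 to 11.2 CPM (0.44, SE 0.09, adjusted p = 0.000173).

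Pcdhga5 had the largest difference among gamma members named in E3. Its levels were 3.90, 5.27 and 6.88 CPM in hippocampus and 2.15, 3.13 and 3.47 CPM in cortex, without overlap (0.82, SE 0.16, edgeR adjusted p = 7.23e-05). Pcdhga4 (0.58, SE 0.11, adjusted p = 7.42e-05), Pcdhga8 (0.49, SE 0.10, adjusted p = 0.000161) and Pcdhga6 (0.39, SE 0.07, adjusted p = 2.64e-05) completed the 6 of smallest p in E3. In E4 the 6 were Pcdhgb7 and Pcdhgb5 as above, Pcdhga4 (0.49, SE 0.11, adjusted p = 0.000589), Pcdhgb6 (0.40, SE 0.11, adjusted p = 0.00277), Pcdhga8 (0.40, SE 0.13, adjusted p = 0.00813) and Pcdhgb8 (0.37, SE 0.08, adjusted p = 0.000433). Pcdhga9, the gamma member of lowest total, showed no difference that passed (0.12, SE 0.16, adjusted p = 0.557 in E3; -0.03, SE 0.15, adjusted p = 0.907 in E4).

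Among beta members, Pcdhb10 was lower in hippocampus without overlap in both genotypes. It ran from 4.81 to 5.94 CPM (median 5.43) in E3 hippocampus against 6.11 to 10.7 CPM (median 7.44) in cortex (-0.51, SE 0.11, edgeR adjusted p = 0.000264), and in E4 from 3.35 to 5.32 CPM (median 4.08) against 5.89 to 8.52 CPM (median 6.91; -0.75, SE 0.11, adjusted p = 4.81e-07). Pcdhb11 was lower by a like amount in E3 (-0.50, SE 0.12, adjusted p = 0.000948) and E4 (-0.58, SE 0.11, adjusted p = 5.95e-05), and Pcdhb12 had differences of -0.42 (SE 0.13, adjusted p = 0.00802) and -0.78 (SE 0.16, adjusted p = 0.000129). Pcdhb3 (-0.62, SE 0.13, adjusted p = 0.000136) and Pcdhb8 (-0.54, SE 0.11, adjusted p = 0.000153) were among the 6 lower members of smallest p in E3, and Pcdhb9 (-0.47, SE 0.08, adjusted p = 4.63e-06) and Pcdhb4 (-0.66, SE 0.12, adjusted p = 2.01e-05) in E4. Pcdhb9 in E3 stood at -0.16 (SE 0.09, adjusted p = 0.135). Pcdhb2, the member of lowest total, stood at -0.51 (SE 0.24, adjusted p = 0.0762) in E3 and was lower in E4 with -0.62 (SE 0.19, adjusted p = 0.00695).

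The alpha genes were lower in hippocampus where they passed. Pcdha6 ran from 120 to 135 CPM (median 126) in E3 hippocampus and from 119 to 171 CPM (median 149) in E3 cortex, overlapping ranges with a log2 difference of -0.20 (SE 0.06, edgeR adjusted p = 0.00360). In E4 it ran from 101 to 133 CPM (median 117) against 130 to 169 CPM (median 152), a difference of -0.39 (SE 0.06, adjusted p = 6.43e-06). Pcdha4 stood at 0.00 (SE 0.14, adjusted p = 0.985) in E3 and was lower in E4 hippocampus (-0.35, SE 0.14, adjusted p = 0.0388). Summing both rows named Pcdha4 moved its E3 value to -0.14. Whether any of these regional differences themselves depended on genotype is the term given above, which passed in 0 members. The summed pan-neuronal markers also had lower medians over the 16 libraries of both treatments in hippocampus than in cortex (5361 against 6164 CPM in E3 and 5266 against 6018 CPM in E4). Other markers were higher in hippocampus: the summed astrocyte markers had medians of 2276 against 1451 CPM in E3 and 2354 against 1810 CPM in E4, and the ependymal markers 11.0 against 4.45 CPM and 12.9 against 4.83 CPM. The part of these shifts in the regional differences was not tested.

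**Figure D4:**
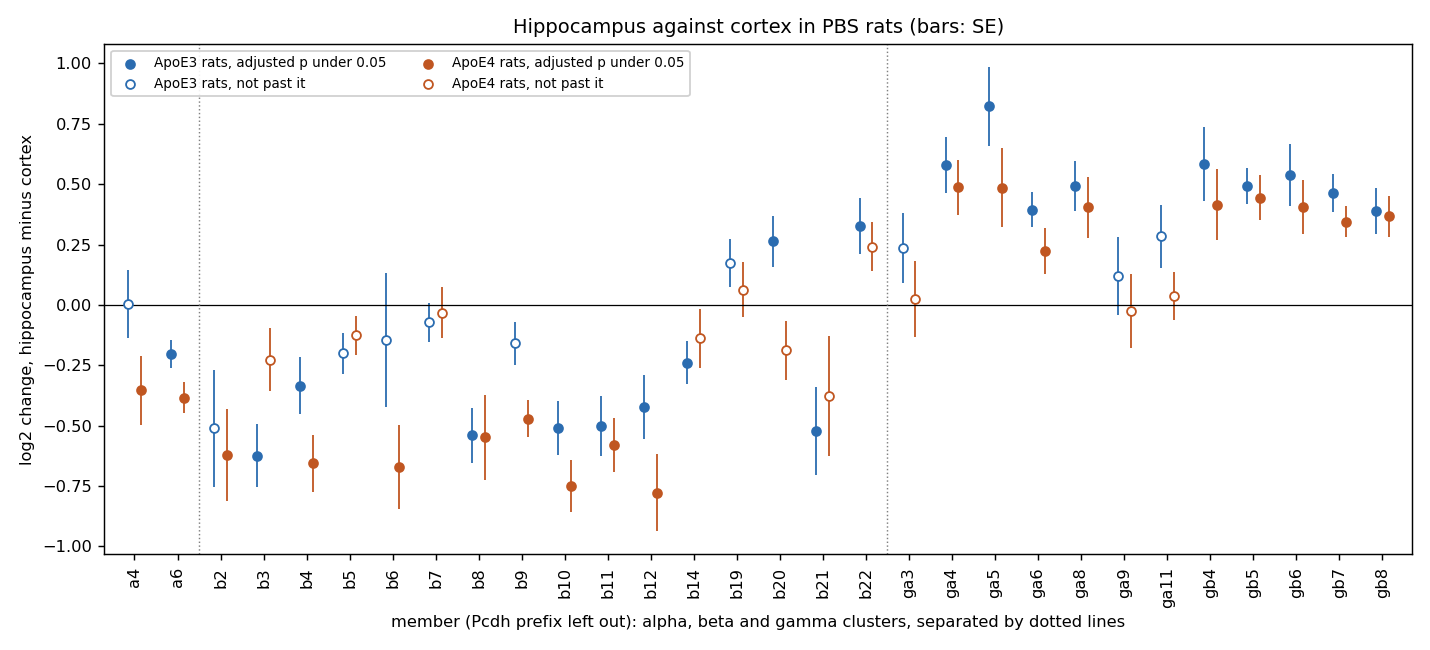
Log2 difference of hippocampus against cortex in PBS rats (y axis; bars are SE) for each of the 30 members in cluster order (x axis), in E3 and E4; filled points passed an edgeR adjusted p of 0.05. The 9 gamma genes that passed lie above 0 in both genotypes, and the beta genes that passed lie below 0 except Pcdhb20 (0.26) and Pcdhb22 (0.33) in E3.

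Complete separation of the 8 hippocampal from the 8 cortical libraries was found for 4 members in E3 (Pcdhb10, Pcdhb11, Pcdhga5 and Pcdhgb5; 18.6% of all genes tested) and for 2 in E4 (Pcdhb9 and Pcdhb10; 19.7%). In the doxorubicin rats 18 members differed between regions in E3 (49.6% of all genes) and 22 in E4 (50.1%), with 10 gamma genes higher in each, and 14 and 18 of the calls were shared with the PBS rats.

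Doxorubicin, the question the study's title names, changed no member by the test used. In the 4 comparisons of doxorubicin with PBS, 0 of 30 members had an edgeR adjusted p under 0.05, as 0.0% of all genes did in each. By DESeq2 0 members passed as well, but its adjusted p was not given for 29 members in E3 cortex and 27 in E4 cortex. At an unadjusted p under 0.05 there were 6 members in E3 hippocampus (10.3% of all genes), 1 in E4 hippocampus (7.38%), 1 in E3 cortex (9.25%) and 1 in E4 cortex (8.82%). No member's 8 treated libraries lay apart from its 8 controls in any of the 4 (0.0268%, 0.0202%, 0.0677% and 0.0404% of all genes in that order).

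The smallest p among members was that of Pcdhga11 in E4 cortex. Its levels were 4.83, 6.02 and 6.97 CPM with PBS and 3.68, 4.64 and 5.26 CPM with doxorubicin, overlapping ranges with a log2 change of -0.40 (SE 0.11, unadjusted p = 0.00191, edgeR adjusted p = 0.362). Pcdhga4 in E3 hippocampus came next, with 8.22, 9.31 and 12.3 CPM against 10.2, 11.8 and 14.0 CPM (0.31, SE 0.09, unadjusted p = 0.00297, adjusted p = 0.213). In the authors' deposited table Pcdhga4 in E3 hippocampus had a log2 fold change of 0.32 and a DESeq2 adjusted p of 0.0725. That was the smallest adjusted p given for a member in their 4 tables, but it was not given for most members in E4 cortex. Among those was Pcdhga11 (-0.40, DESeq2 unadjusted p = 0.000846, against 0.00104 for Pcdhga4 in E3 hippocampus). Their tables list 149, 1, 8 and 28 genes under 0.05 for E3 hippocampus, E4 hippocampus, E3 cortex and E4 cortex.

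In E3 hippocampus the other members of smallest p in each direction were Pcdhgb5 (0.17, SE 0.06, edgeR adjusted p = 0.338) above 0, and Pcdhb8 (-0.24, SE 0.10, adjusted p = 0.402) and Pcdhb12 (-0.30, SE 0.14, adjusted p = 0.473) below 0. Pcdhb2, the member of lowest total, had a larger change with a larger error (0.53, SE 0.23, adjusted p = 0.429). There 10 of 12 gamma members had values above 0 (median 0.14), against 8 of 16 beta members (median -0.03) and 50.7% of all genes (median 0.00). Markers of other cell types moved in the same libraries without passing: 4 of 4 meningeal fibroblast markers were below 0 (median -1.61), 5 of 5 choroid plexus markers above 0 (median 2.12), 3 of 3 tested ependymal markers above 0 (median 0.59) and 4 of 4 oligodendrocyte markers above 0 (median 0.21). The endothelial marker Cdh5 stood at -0.89 (unadjusted p = 0.000433, edgeR adjusted p = 0.170). Their part in the values was not tested.

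In the remaining comparisons no value passed. In E4 hippocampus the members of smallest p in each direction were Pcdha4 (0.26, SE 0.10, edgeR adjusted p = 0.641) and Pcdhga3 (0.19, adjusted p = 0.745), and Pcdhga11 (-0.20, adjusted p = 0.684) and Pcdhb3 (-0.25, adjusted p = 0.696). In E3 cortex they were Pcdhb22 (0.32, SE 0.11, adjusted p = 0.390) and Pcdhgb5 (0.17, adjusted p = 0.561), and Pcdhb5 (-0.10, adjusted p = 0.720) and Pcdhb8 (-0.11, adjusted p = 0.793). In E4 cortex Pcdha6 (0.10, adjusted p = 0.588) and Pcdhb11 (0.18, adjusted p = 0.638) stood above 0, and after Pcdhga11 the member of smallest p below 0 was Pcdhga3 (-0.18, adjusted p = 0.771). The median log2 change of gamma members was -0.00 in E4 hippocampus, 0.05 in E3 cortex and 0.01 in E4 cortex.

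**Figure D5:**
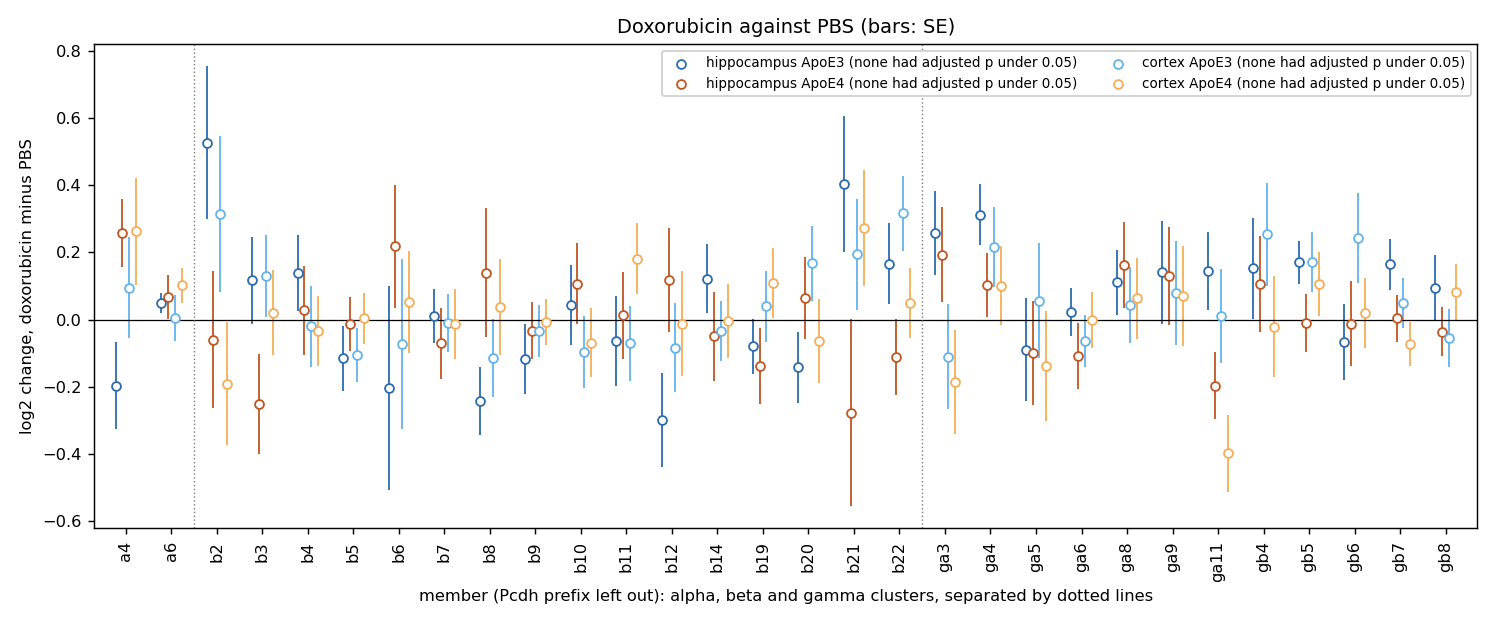
Log2 change of doxorubicin against PBS (y axis; bars are SE) for each of the 30 members in cluster order (x axis), in the 4 combinations of region and genotype. No point passed an edgeR adjusted p of 0.05, and the change with the smallest p was -0.40 for Pcdhga11 in E4 cortex.

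Terms for a drug effect that depended on genotype or region passed in 0 members (edgeR and DESeq2). For genotype, 3 members in hippocampus had an unadjusted p under 0.05 (8.18% of all genes), led by Pcdha4 (0.46, SE 0.16, adjusted p = 0.500), and 1 in cortex (5.45%), Pcdhga11 (-0.42, SE 0.18, adjusted p = 0.879). For region, 1 member in E3 rats, Pcdhb20 (-0.32, SE 0.15, adjusted p = 0.607), and 0 in E4 rats did so (8.0% and 3.59% of all genes). Between females and males 0 members passed in either region by edgeR or DESeq2 (0.11% of all genes in hippocampus and 0.705% in cortex by edgeR), with 4 and 2 members at an unadjusted p under 0.05 (9.49% and 15.0%). The smallest of these was that of Pcdhga9 in cortex (0.25 higher in females, SE 0.10, adjusted p = 0.256). In hippocampus Pcdhga9 had the opposite sign (-0.23, SE 0.11, edgeR unadjusted p = 0.0395, adjusted p = 0.506).

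Genes that act on the clusters were followed as a list of 20 regulators of protocadherin promoter choice, which holds CTCF, cohesin subunits with their loaders and releasers, DNA methyltransferases and silencing factors. Between genotypes 2 of 20 passed in hippocampus (3.81% of all genes), both lower in E4 and both subunits of cohesin, the ring that forms chromatin loops: Rad21 (-0.14, SE 0.03, edgeR adjusted p = 0.00192) and Smc1a (-0.10, SE 0.03, adjusted p = 0.0250). In cortex 5 of 20 passed (18.2% of all genes), 4 higher and 1 lower, among them Pds5b, a cohesin regulator (0.19, SE 0.04, adjusted p = 0.000469), and Rest, a repressor of neuronal genes (0.48, SE 0.11, adjusted p = 0.00227). The list's median change was -0.02 in hippocampus and 0.02 in cortex. Between regions 7 of 20 passed in E3 (51.0% of all genes), 3 higher in hippocampus and 4 lower, led by Rest (0.57, SE 0.13, adjusted p = 0.000414), the cohesin loader Nipbl (-0.22, SE 0.05, adjusted p = 0.000547) and Setdb1, a histone methyltransferase (0.19, SE 0.05, adjusted p = 0.00143). In E4 15 of 20 passed (50.4% of all genes), 3 higher (24.7%) and 12 lower (25.7%), led by the DNA methyltransferase Dnmt3a (-0.29, SE 0.05, adjusted p = 2.95e-06), Smc1a (-0.19, SE 0.04, adjusted p = 2.67e-05) and Nipbl (-0.33, SE 0.07, adjusted p = 7.11e-05).

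Of 18 listed partners of the proteins, such as the kinases, proteases and actin regulators that act with their intracellular parts, 17 were tested. Between genotypes 1 passed in hippocampus (3.81% of all genes), the kinase Pak1 (-0.24, SE 0.07, edgeR adjusted p = 0.0352), and 5 in cortex (18.2%), 3 higher and 2 lower, led by the protein kinase C gene Prkca (0.44, SE 0.08, adjusted p = 6.99e-05), its substrate Marcks (-0.19, SE 0.04, adjusted p = 0.00195) and the actin regulator Brk1 (-0.14, SE 0.04, adjusted p = 0.00832). Between regions 11 passed in E3 (7 higher in hippocampus, 4 lower) and 14 in E4 (7 and 7), beside 51.0% and 50.4% of all genes, with Cyfip1, of the WAVE actin complex, among the smallest p in both (0.81, SE 0.04, adjusted p = 1.64e-18, and 0.68, SE 0.03, adjusted p = 7.64e-18).

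The non-clustered protocadherins are single genes outside the clusters, and 11 of 12 listed were tested. Between genotypes 0 passed in hippocampus (edgeR; 0 also at an unadjusted p under 0.05) and 4 in cortex, all higher in E4 (9.63% of all genes were higher), among them the cell-adhesion genes Pcdh10 (0.28, SE 0.06, edgeR adjusted p = 0.00105), Pcdh1 (0.25, SE 0.07, adjusted p = 0.0118) and Pcdh15 (0.26, SE 0.09, adjusted p = 0.0415). Of these 4, Pcdh1 and Pcdh12 were also counted above among the genes around the clusters that passed in cortex. Between regions 9 passed in each genotype (51.0% and 50.4% of all genes in E3 and E4), 5 higher in hippocampus and 4 lower. Pcdh19 was higher in hippocampus (1.46, SE 0.09, adjusted p = 1.23e-15 in E3; 1.34, SE 0.07, adjusted p = 2.68e-17 in E4) and Pcdh10 lower (-0.75, SE 0.06, adjusted p = 1.60e-12; -1.02, SE 0.06, adjusted p = 1.24e-16). With doxorubicin 0 genes of the 3 lists passed in any of the 4 comparisons by edgeR, with 1, 1, 4 and 1 regulators, 2, 1, 3 and 2 partners and 2, 1, 0 and 4 non-clustered genes at an unadjusted p under 0.05 in E3 hippocampus, E4 hippocampus, E3 cortex and E4 cortex (10.3%, 7.38%, 9.25% and 8.82% of all genes).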

How the data were processed

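Total RNA of hippocampus and cortex from 32 rats was sequenced as 64 libraries. The authors used STAR 2.5.2b as aligner and DESeq2 for their tests, per the submitters' processing notes. The counter, genome build, annotation and strandedness are not given in the sources used here. Per the file headers, the deposited raw tables hold counts per Ensembl gene, with 92 ERCC spike-in rows and 1 ApoE3 donor row. The authors' comparison tables give symbols, a log2 fold change and p-values per gene, and a signal per library, the authors' count scaled by size factors, which was not tested.

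Here counts were fitted with edgeR 4.0.16 (limma 3.58.1, R 4.3.3): TMM scaling, filterByExpr, quasi-likelihood F-test, Benjamini-Hochberg adjustment over all genes, threshold 0.05. All 30 members passed the filter in each comparison. The SE of a log2 change is its size over the root of F. Doxorubicin was tested on 16 libraries with sex as covariate, genotype and sex on the 32 of a region, and hippocampus against cortex on the 32 of a genotype. Other alternatives, DESeq2 1.42.0 among them, are in the closing section. The tests were checked on simulated counts with known log2 changes. Changes of 0.6 were recovered in 80% of genes for doxorubicin in E3 hippocampus, 78.6% for genotype in hippocampus and 73.5% for region in E3. Changes of 1.5 were recovered in 97% to 99%, and there were 11 to 14 false calls. In each comparison 96 to 100 genes of each size were changed, drawn from all genes tested and not from the members. The adjusted p depends on how many genes change, and edgeR called 0 genes for doxorubicin. The rates therefore do not give the power for a member there. Smaller changes, the size of most doxorubicin values named here, were not simulated. Levels and cluster sums used Python 3.11.15, pandas 2.3.3 and numpy 2.4.6. Depth and 8 libraries a group limit the precision.

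Members, gene lists and tests were chosen with earlier results of these data known. Named in each comparison are all members that passed if 12 or fewer, otherwise the 6 of smallest p in each direction, and where none passed the 2 of smallest p in each direction; also the members of highest and lowest total of each cluster and, of the 3 gene lists, up to 3 that passed. For doxorubicin, members of highest and lowest total that are not named are given through the cluster sums and the plot of all members. Both regions came from the same rats, as the rat numbers of the titles show. Deviations from group means, compared between the regions of a rat over 13242 genes, had a median correlation of 0.26 over 32 rats (range -0.01 to 0.41, 29 above 0.1). The values of 1 gene in the list of regulators are not reported here.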

Additional observations from a re-analysis of the deposited data

Results flagged for a closer look

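In 10 of 264 groups of 8 libraries, 1 library stood far from the other 7 in a member or cluster sum, as its gap to the nearest of them, relative to the range, exceeded the critical value of Dixon's test for 8 values. Chance gives about 1 in 20 such groups. In E4 cortex with PBS, rat 19 had 3.67 CPM of Pcdhb2 (the other 7 libraries 1.47 to 2.38) and rat 24 had 10.5 CPM of Pcdhb5 (14.0 to 15.8). In E3 cortex with PBS, rat 45 had 9.95 CPM of Pcdhb11 (6.91 to 8.17). In E4 cortex with doxorubicin, rat 31 had 3.27 CPM of Pcdhb8 (4.21 to 4.87) and rat 13 had 18.7 CPM of Pcdhgb7 (14.0 to 16.2). In E3 cortex with doxorubicin, rat 47 had 4.94 CPM of Pcdhga5 (2.04 to 3.09).

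The other 4 were in E4 hippocampus with doxorubicin. There rat 11 had 0.141 CPM of Pcdhb21 (1.03 to 1.82) and the lowest sum of beta members, 72.9 CPM (87.3 to 92.1), rat 10 had 8.85 CPM of Pcdhb22 (4.92 to 6.41), and rat 34 had 8.41 CPM of Pcdhga4 (12.3 to 14.3). The cortical library of rat 19 and the hippocampal library of rat 10 are among the 11 high in choroid plexus markers.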

How the results depend on the processing

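Every alternative count of members called stayed within 1.5 times the reported one (199 counts), among them RLE size factors, no filter on low counts, no sex term, summed rows of 1 symbol, DESeq2, the doxorubicin rats and the libraries without high choroid plexus markers. For genotype the counts were 7 to 12 in hippocampus and 8 to 11 in cortex, with 7 to 9 and 8 to 11 when each library was left out in turn, and for doxorubicin 0. With each rat as a replicate block, the pairing by animal, 21 members differed between regions in E3 and 20 in E4, among them all 20 and 19 reported, and the block changed no other count of members by over 1.5 times. DESeq2 called 153, 81 and 33 genes for doxorubicin in E3 hippocampus, E3 cortex and E4 cortex, against 0 by edgeR. In cortex its count of members for doxorubicin cannot show stability, because its adjusted p was not given for most members there. Cluster sums moved when set per ERCC spike-in count in place of CPM. In log2, the doxorubicin differences of alpha, beta and gamma became 0.26, 0.20 and 0.35 in E3 hippocampus, 0.40, 0.30 and 0.33 in E4 hippocampus, 0.19, 0.18 and 0.24 in E3 cortex, and 0.28, 0.19 and 0.17 in E4 cortex, from 0.03, -0.04 and 0.11, from 0.07, -0.03 and 0.01, from 0.02, 0.01 and 0.07, and from 0.12, 0.02 and -0.00. The genotype difference of beta became -0.30 from -0.22 in hippocampus and -0.19 from -0.13 in cortex. By construction this scaling shifted every gene alike, by 0.24, 0.32, 0.17 and 0.17 in the 4 doxorubicin comparisons in the same order, and relative to that shift the cluster differences are those in CPM. Of the values of single members, 1372 kept direction and side of the threshold, 35 lost and 2 gained their call, and 15 changed sign; the cause was not tested. Without libraries high in choroid plexus markers these were Pcdhb2 with doxorubicin in E4 hippocampus (0.0159) and Pcdhb9 in E4 cortex (0.0101). In the doxorubicin rats they were, for genotype, Pcdha4 (0.39) and Pcdhb2 (-0.33) in hippocampus and Pcdhga11 (-0.0179), Pcdhb2 (-0.16) and Pcdhgb7 (-0.0702) in cortex, and, for region, Pcdha4 in E3 (-0.29) and Pcdhga9 in E4 (0.0305). Pcdha4 also changed sign for genotype in hippocampus with summed rows (0.12), and for region in E3 with RLE (-0.00784), without the filter (-0.00889), with summed rows (-0.14), with the rat block (-0.00371) and by DESeq2 (-0.00780). Depth limits the low members most: Pcdhb6 had 5 to 21 counts in E3 libraries with PBS.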
